A study of Mus musculus with 18 samples.

Results

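Kinetochore, centromere and spindle checkpoint genes were described in ED1SQ4, a murine line of lung cancer cells derived from a lung tumor of a cyclin E–overexpressing transgenic mouse. The members were the 39 genes whose symbol is on a list of kinetochore parts: 3 of centromeric chromatin, 13 of the inner kinetochore, 13 of the outer kinetochore and 10 of the checkpoint and the fibrous corona. All 39 were found among the 55450 genes of the count table, and all 39 had enough reads to be compared. The list was drawn up by gene function, with earlier results of these data known. Cells received vehicle or 0.5 μM CYC065, an inhibitor of CDK2 and CDK9, for 72 hours. RNA-Seq was then run on unsorted cells and on 2N and 4N cells, which had been separated on a cell sorter after staining of their DNA with a green dye. The 6 conditions shared the cell line and the time and differed in treatment and in DNA content. The 2N and 4N cells also differed from the unsorted cells in having passed the sorter. DNA content by a dye does not tell a diploid cell in G2 or mitosis from a tetraploid cell in G1, so 4N here names a gate and not a ploidy.

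The kinetochore is the protein structure that joins a chromosome to spindle microtubules. It is built on nucleosomes that carry the histone H3 variant CENP-A, on which a constitutive inner layer sits through the cell cycle. The outer layer, which binds microtubules, assembles on it as cells enter mitosis. The spindle checkpoint is a signal from kinetochores that lack microtubules, and it delays anaphase by holding back the anaphase-promoting complex. Many of these genes are transcribed in a wave late in the cell cycle.

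Each condition was 1 library, deposited as 3 columns. Over genes with whole counts, the columns of a condition differed by no more than sampling noise, with chi-square values per degree of freedom of 0.991 to 1.02, so the columns were summed and no condition has replicates. The summed libraries held 54750168 to 62795450 counts, and a member had 94 to 22020 counts in a library. Levels are CPM, counts scaled to a common library size, after TMM scaling, a correction for library composition. Each comparison of libraries is a log2 ratio of such levels, followed in parentheses by its exact 95% counting interval. This interval covers counting error only, not the spread between cultures, which was not measured. A gene is called higher or lower when its log2 ratio lies beyond 1 or -1, a 2-fold difference. In bulk RNA, fewer cells that express a gene and less RNA of it per cell cannot be told apart. Of 8 epithelial markers, all 8 were below 1 CPM in every library and 2 had no count, and the summed level of the 8 ran from 0.463 to 1.48 CPM. The 6 fibroblast markers summed to 6500 to 9620 CPM with vehicle and to 10400 to 18300 CPM with CYC065, and their part in the results below was not tested.

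The first question was whether CYC065 moved these genes as a set. In unsorted cells, all 39 members were lower with CYC065 than with vehicle, and each counting interval lay wholly below 0, where 42.1% of all genes did so. Of the 39, 30 were called lower, beside 12.6% of all genes tested, and the median log2 ratio was -1.39 against -0.01 over all genes. The smallest difference was in *Zwint* (-0.42) and the widest in *Ska1* (-2.71).

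In 2N cells, 26 members were called lower, beside 11.5% of all genes, and the median was -1.17 against 0.01 over all genes. The interval lay below 0 in 38 members and in 42% of all genes. The exception was *Cenpc1*, which links CENP-A nucleosomes to the outer kinetochore, at -0.07 (-0.15 to 0.02).

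In 4N cells, 11 members were called lower, beside 10.1% of all genes, with a median of -0.77 against 0.03 over all genes. These were *Cenpb*, *Cenph*, *Cenpm*, *Cenpn*, *Cenpu*, *Ndc80*, *Spc24*, *Ska1*, *Mad2l1*, *Zwilch* and *Cenpe*. *Ndc80* (-1.01, -1.07 to -0.94) had an interval that crossed -1, and the count was 16 with DESeq2 size factors. The interval lay below 0 in 36 members (41.2% of all genes) and above 0 in *Cenpc1* and *Cenpq* (43.5%). In *Hjurp* it held 0. Shared out over the populations, 10 members were below -1 in all 3, beside 5.94% of the 13537 genes compared in each. A further 14 were below -1 in unsorted and 2N cells but not in 4N cells, beside 2.13%, and 7 were below -1 in none, beside 83%.

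**Figure D1:**
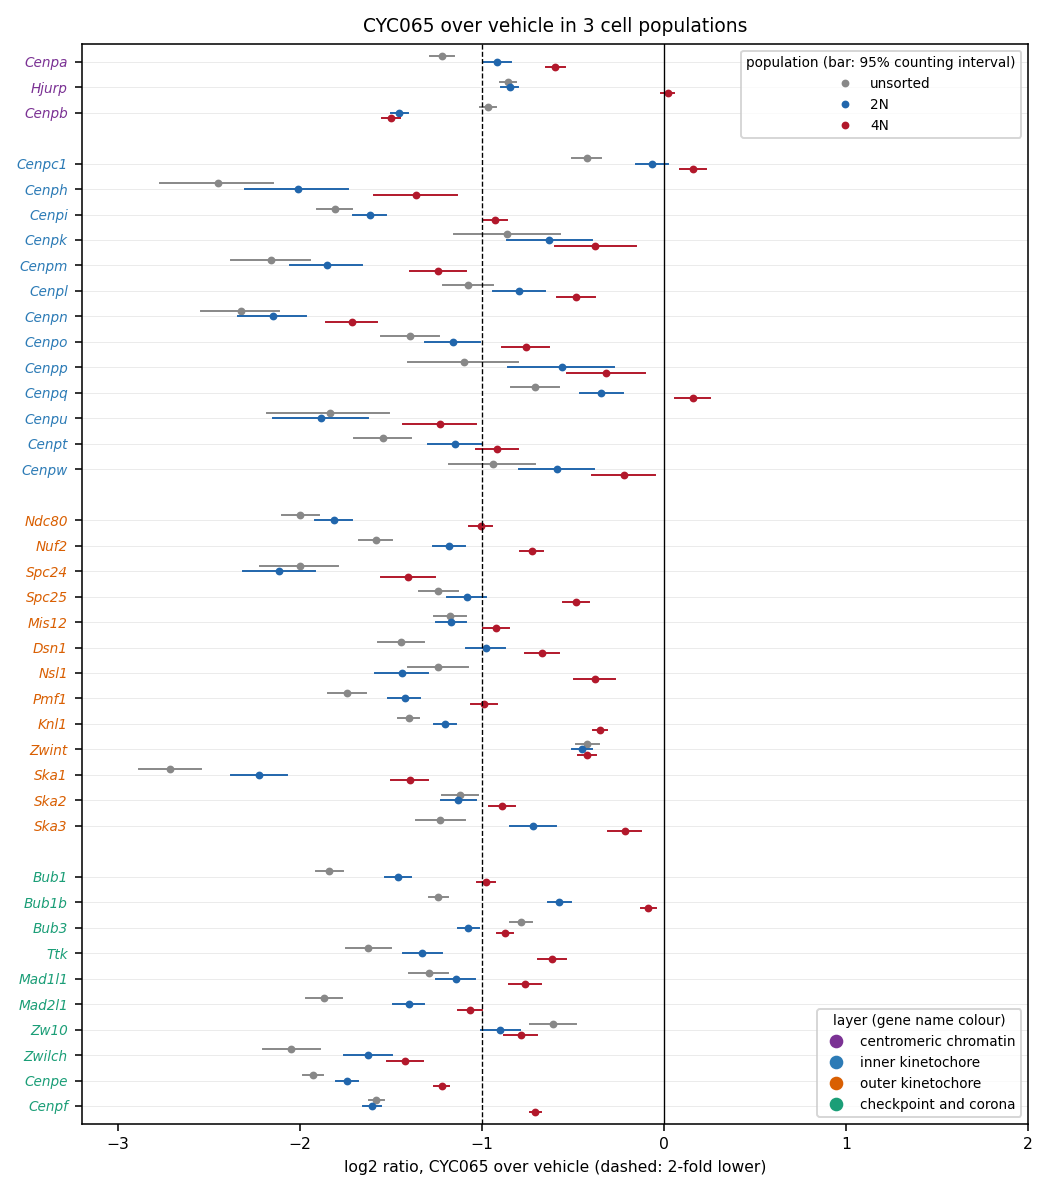
Log2 ratio of CYC065 over vehicle for each of the 39 members (rows, grouped by layer) in unsorted (grey), 2N (blue) and 4N (red) cells, with 95% counting intervals as bars; the dashed line marks a 2-fold lower level. The grey points all lie left of 0, and the red point lies to the right of the blue one in 38 of 39 members.

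A second comparison set 4N against 2N cells within each treatment. It uses the same 4 sorted libraries as the ratios above, so a smaller difference in 4N cells and a higher 4N/2N ratio after CYC065 are the same measurement. With vehicle, no member was called, beside 1.01% of all genes above 1, and the median was 0.31 against 0.00 over all genes. The interval lay above 0 in 27 members (26.9% of all genes), below 0 in *Cenpb* and *Nsl1* (26.8%), and across 0 in the other 10. By edgeR's quasi-likelihood test on the deposited columns, which compares libraries and not conditions, no member was called either, beside 318 of 13364 genes. All 10 checkpoint and corona genes were among the 27, as were 7 of the 13 inner and 8 of the 13 outer kinetochore genes.

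After CYC065, 11 members were called higher in 4N cells, beside 1.52% of all genes, and the median was 0.74 against 0.00 over all genes. They were *Cenpa* and *Hjurp* of centromeric chromatin, 6 outer kinetochore genes (*Ndc80*, *Nuf2*, *Spc25*, *Knl1*, *Ska1* and *Ska3*) and *Bub1b*, *Cenpe* and *Cenpf* of the checkpoint and corona. The interval lay above 0 in 37 members (27.5% of all genes) and below 0 in *Cenpb* (27.6%). Of the 13 inner kinetochore genes, 0 were called and 12 had an interval wholly above 0. *Hjurp* (1.01, 0.96 to 1.05), *Nuf2* (1.01, 0.92 to 1.10) and *Ska3* (1.01, 0.89 to 1.13) had intervals that crossed 1.

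The 4N/2N ratio was higher after CYC065 than with vehicle in 38 members, beside 7378 of 14482 genes tested. The interval of the difference lay above 0 in 34 of the 38, where 26.1% of all genes did so. The median difference was 0.44 on the log2 scale against 0.01 over all genes. Its interval held 0 in *Cenpb*, *Cenpk*, *Cenpp*, *Zwint* and *Zw10*. *Nsl1*, at 1.06 (0.88 to 1.24), was the 1 member with a difference above 1, beside 3.61% of all genes.

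**Figure D2:**
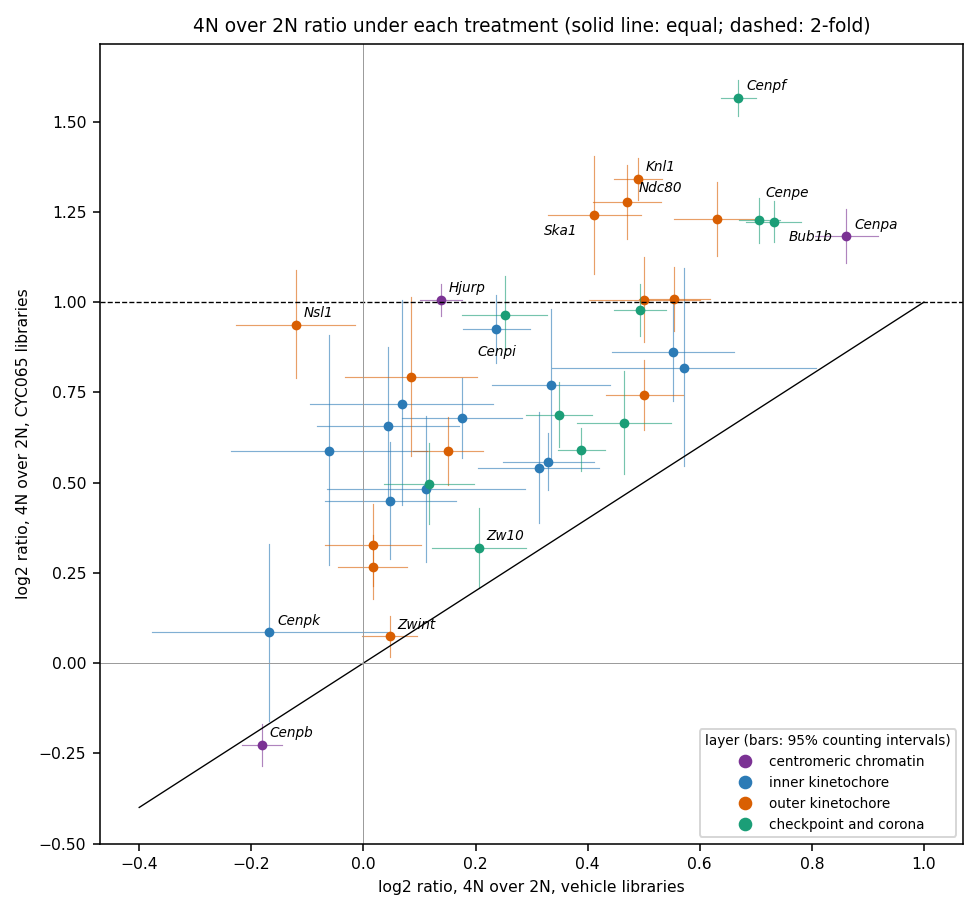
Log2 ratio of 4N over 2N cells in the vehicle libraries (x axis) and in the CYC065 libraries (y axis) for the 39 members, colored by layer, with 95% counting intervals as bars. All points but *Cenpb* lie above the line of equal ratios, and the 11 points above the dashed 2-fold line hold no inner kinetochore gene.

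The members spanned a wide range of levels. In the sentences on single genes, each pair of levels gives vehicle first and CYC065 second. The lowest level over the 6 libraries was that of CYC065-treated unsorted cells in 30 members, where 28.7% of all genes had their lowest level, and the highest was that of vehicle-treated 4N cells in 29 members, where 19% of all genes had theirs.

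**Figure D3:**
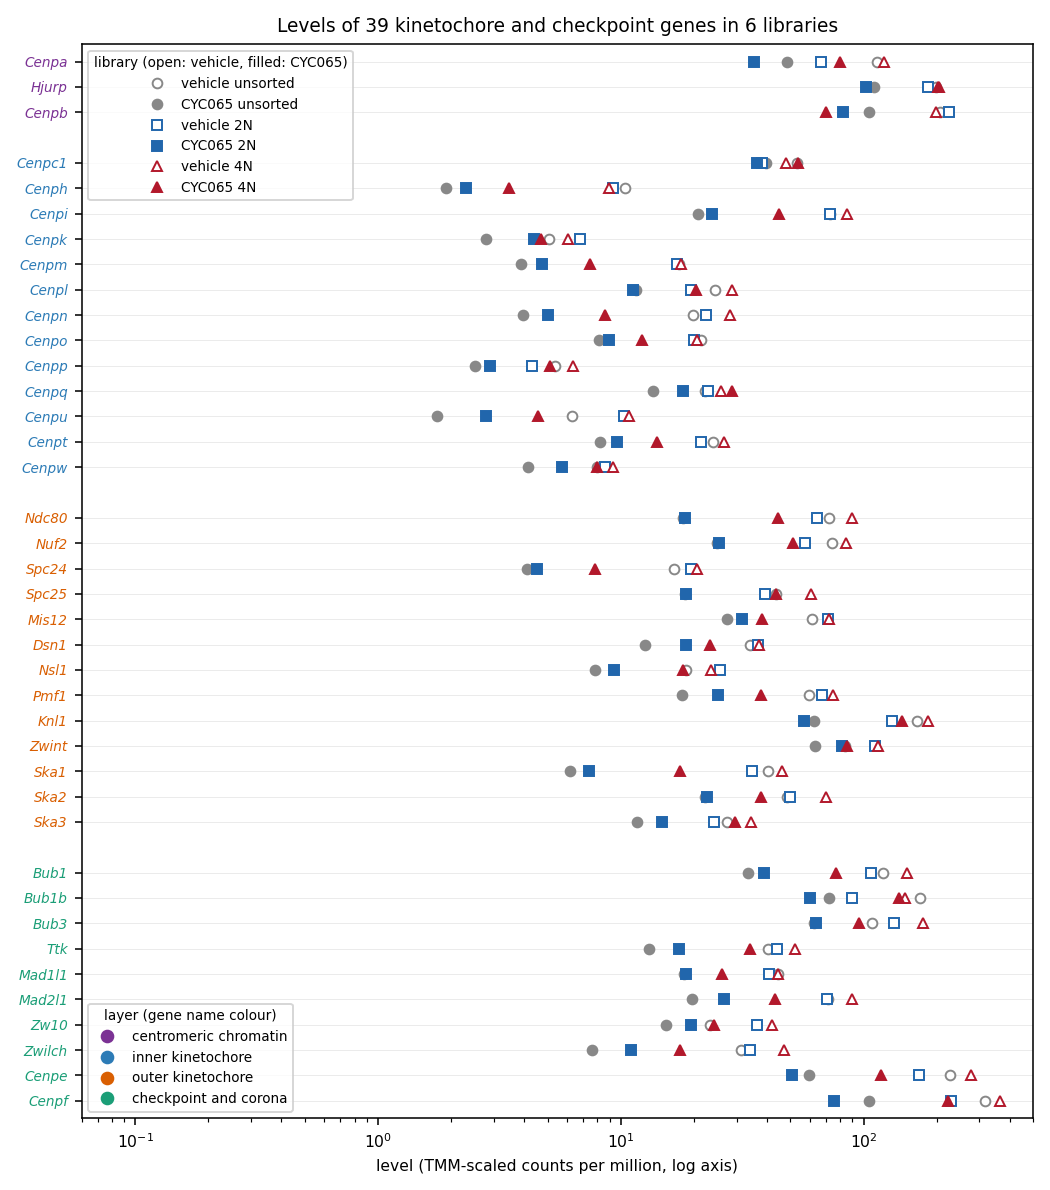
Level of each member (rows, grouped by layer) in the 6 libraries, in TMM-scaled CPM on a log axis, with open symbols for vehicle and filled symbols for CYC065. In most rows the filled circle and filled square lie to the left and the open triangle to the right; *Hjurp*, *Cenpc1* and *Cenpq* have the filled triangle at the right end, in *Hjurp* and *Cenpc1* close to an open symbol.

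In centromeric chromatin, the genes for the CENP-A histone and its loading factor differed from the gene for the satellite-binding protein CENP-B. *Cenpa* encodes the histone H3 variant that marks the centromere, and its level was 113 and 48.6 CPM in unsorted cells, 66.8 and 35.3 in 2N cells, and 121 and 80.2 in 4N cells. Its 4N/2N log2 ratio was 0.86 (0.81 to 0.92) with vehicle, the highest of the 39, and 1.18 (1.11 to 1.26) after CYC065. The level in CYC065-treated 4N cells lay above that in vehicle-treated 2N cells. *Hjurp* encodes the chaperone that deposits CENP-A, and its level was 199.5 and 110.1 CPM in unsorted cells, 184 and 102 in 2N cells, and 202 and 205 in 4N cells. In 4N cells the levels with and without CYC065 did not differ beyond counting error (0.02, -0.02 to 0.05), and the sign turned with DESeq2 size factors. In 2N cells *Hjurp* was at -0.85 (-0.90 to -0.80), so the difference between the 4N/2N ratios was 0.87 (0.81 to 0.93). *Cenpb* encodes a protein that binds a short box in centromeric satellite DNA, and its level was 206 and 105 CPM in unsorted cells, 225 and 82.1 in 2N cells, and 199 and 70.2 in 4N cells. It was the 1 member whose lowest library was CYC065-treated 4N cells, with CYC065 over vehicle at -1.45 (-1.50 to -1.41) in 2N and -1.50 (-1.55 to -1.45) in 4N cells. Its 4N/2N ratio was below 0 with vehicle (-0.18, -0.22 to -0.15) and after CYC065 (-0.23, -0.29 to -0.17).

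The promoters of *Cenpa* and *Cenpb* are shown since these genes had the highest and the lowest 4N/2N ratio of this layer after CYC065. Each sequence runs from 250 bases before to 50 bases after the RefSeq start site on the gene's strand (GRCm38.p6), with the cell cycle homology region (CHR, TTTGAA or TTCGAA) and the CCAAT box, on either strand, in capitals. *Cenpa* (chr5:30666636-30666935, plus strand) held a CHR starting 16 bases after the start site and 2 CCAAT boxes before it, and *Cenpb* (chr2:131180018-131180317, minus strand) held neither.
Cenpa: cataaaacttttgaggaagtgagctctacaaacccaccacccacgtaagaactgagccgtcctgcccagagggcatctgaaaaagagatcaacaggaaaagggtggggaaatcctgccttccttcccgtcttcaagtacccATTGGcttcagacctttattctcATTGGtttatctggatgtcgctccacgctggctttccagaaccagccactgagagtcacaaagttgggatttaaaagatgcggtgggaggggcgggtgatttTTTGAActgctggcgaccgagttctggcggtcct
Cenpb: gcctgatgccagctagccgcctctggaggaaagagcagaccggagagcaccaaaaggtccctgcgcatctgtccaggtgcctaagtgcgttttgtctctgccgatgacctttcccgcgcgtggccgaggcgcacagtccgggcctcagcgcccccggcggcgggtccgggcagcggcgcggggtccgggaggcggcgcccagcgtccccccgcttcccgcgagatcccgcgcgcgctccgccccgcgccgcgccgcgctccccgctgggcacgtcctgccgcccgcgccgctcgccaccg

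In the inner kinetochore, the members ranged widely with CYC065, from *Cenph* and *Cenpn* to *Cenpc1*. The median log2 ratio of CYC065 over vehicle was -1.39 in unsorted, -1.15 in 2N and -0.76 in 4N cells, and 9, 7 and 4 of 13 were called lower. *Cenpc1* was at 53.4 and 39.8 CPM in unsorted cells, 38.2 and 36.4 in 2N cells, and 47.97 and 53.6 in 4N cells. Its level was lower with CYC065 in unsorted cells (-0.42, -0.50 to -0.34) and higher in 4N cells (0.16, 0.09 to 0.23). Its levels in CYC065-treated 4N cells and in vehicle-treated unsorted cells were the highest and did not differ beyond counting error.

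The CENP-H, CENP-I, CENP-K and CENP-M proteins form 1 complex of the inner layer, and their genes did not share 1 pattern. *Cenph* was at 10.4 and 1.900 CPM in unsorted cells, 9.31 and 2.31 in 2N cells, and 8.93 and 3.47 in 4N cells, the widest difference of the layer in unsorted cells (-2.45, -2.77 to -2.15). *Cenpi*, the most counted gene of the complex, was at 72.7 and 20.7 CPM in unsorted cells, 72.8 and 23.7 in 2N cells, and 85.8 and 45.01 in 4N cells. Its 4N/2N ratio after CYC065 (0.92, 0.83 to 1.02) was the highest of the layer, below 1 but with an interval that crossed it. *Cenpk* was at 5.08 and 2.79 CPM in unsorted cells, 6.81 and 4.40 in 2N cells, and 6.06 and 4.67 in 4N cells, and its 4N/2N interval held 0 with vehicle (-0.17, -0.38 to 0.04) and after CYC065 (0.08, -0.16 to 0.33). With vehicle, 3 of the 4 genes of the complex had a 4N/2N interval across 0. After CYC065, 3 of the 4 had one wholly above 0.

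CENP-N, which reads the CENP-A nucleosome, and CENP-L form a heterodimer. *Cenpl* was at 24.4 and 11.6 CPM in unsorted cells, 19.5 and 11.2 in 2N cells, and 28.6 and 20.5 in 4N cells. *Cenpn* was at 19.9 and 3.97 CPM in unsorted cells, 22.4 and 5.03 in 2N cells, and 28.2 and 8.59 in 4N cells, and it had the lowest CYC065/vehicle ratio of the 39 members in 4N cells (-1.72, -1.85 to -1.58). The pair thus lay well apart with CYC065 in 4N cells, since *Cenpl* was at -0.49 (-0.59 to -0.38) there.

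The CENP-O, CENP-P, CENP-Q and CENP-U group carries microtubule binding and a docking site for the mitotic kinase PLK1. *Cenpq* was at 22.1 and 13.5 CPM in unsorted cells, 22.8 and 17.97 in 2N cells, and 25.8 and 28.8 in 4N cells. With CYC065 it was lower in 2N cells (-0.35, -0.46 to -0.23) and higher in 4N cells (0.16, 0.06 to 0.25). Neither interval held 0 with TMM scaling. *Cenpp*, a gene of few counts, was at 5.35 and 2.50 CPM in unsorted cells, 4.29 and 2.90 in 2N cells, and 6.38 and 5.12 in 4N cells. Its 4N/2N ratio with vehicle (0.57, 0.34 to 0.81) was the highest of the layer, and the difference from the ratio after CYC065 was 0.25 (-0.11 to 0.60). *Cenpu* was called lower in all 3 populations (-1.84, -1.88 and -1.23) and *Cenpo* in unsorted and 2N cells (-1.39 and -1.16). Exons of genes on the other strand cover 26.7% of the exonic length of *Cenpu* (*Primpol*) and 22.5% of that of *Cenpo* (*Adcy3* and *Ptrhd1*), and whether the counting used strand is not given in the sources used here.

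CENP-T and CENP-W are histone-fold proteins that form a second route to the outer kinetochore, through the NDC80 complex. *Cenpt* was at 23.98 and 8.21 CPM in unsorted cells, 21.4 and 9.68 in 2N cells, and 26.6 and 14.1 in 4N cells, with CYC065 over vehicle at -1.15 (-1.29 to -1.0) in 2N and -0.92 (-1.04 to -0.80) in 4N cells. Its partner gene *Cenpw* had smaller ratios, -0.59 (-0.80 to -0.39) and -0.22 (-0.40 to -0.05).

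*Cenpi* and *Cenpk* had the highest and the lowest 4N/2N ratio of the inner kinetochore after CYC065, and their promoters are shown in the same way. Neither held a CHR. The *Cenpi* window (chrX:134307834-134308133, plus strand) had a CCAAT box just after the start site, and that of *Cenpk* (chr13:104228361-104228660, plus strand, the most upstream of its 3 windows) had 1 at 159 bases before it.
Cenpi: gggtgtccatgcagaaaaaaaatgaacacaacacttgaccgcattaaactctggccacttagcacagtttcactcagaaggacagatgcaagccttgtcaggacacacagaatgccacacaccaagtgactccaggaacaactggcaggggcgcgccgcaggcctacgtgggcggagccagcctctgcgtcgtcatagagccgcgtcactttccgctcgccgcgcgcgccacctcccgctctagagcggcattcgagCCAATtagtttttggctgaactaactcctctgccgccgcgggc
Cenpk: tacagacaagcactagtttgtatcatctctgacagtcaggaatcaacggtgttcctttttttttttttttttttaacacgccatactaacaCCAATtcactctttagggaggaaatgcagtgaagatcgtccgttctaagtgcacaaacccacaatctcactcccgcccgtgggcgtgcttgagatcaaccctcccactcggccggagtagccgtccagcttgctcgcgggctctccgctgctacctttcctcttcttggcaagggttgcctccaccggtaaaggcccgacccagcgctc

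In the outer kinetochore, 12 of 13 members were called lower with CYC065 in unsorted cells, 10 in 2N and 3 in 4N cells, with medians of -1.40, -1.18 and -0.73. The NDC80 complex is the main microtubule coupler. *Nuf2*, its most counted gene, was at 74.5 and 24.8 CPM in unsorted cells, 57.6 and 25.4 in 2N cells, and 84.6 and 51.1 in 4N cells. *Spc25* was at 43.5 and 18.4 CPM in unsorted cells, 39.3 and 18.5 in 2N cells, and 60.8 and 43.4 in 4N cells, and its 4N/2N ratio was the highest of the layer with vehicle (0.63, 0.55 to 0.71). *Spc24*, whose product pairs with SPC25 at the inner end of the complex, was at 16.5 and 4.12 CPM in unsorted cells, 19.5 and 4.51 in 2N cells, and 20.7 and 7.81 in 4N cells. *Spc24* was the least counted of the 4 and had the lowest CYC065/vehicle ratio of the layer in 4N cells (-1.41, -1.56 to -1.26), where *Spc25* was at -0.48 (-0.56 to -0.41). *Ndc80* itself was called lower in all 3 populations (-2.00, -1.82 and -1.01). After CYC065, 3 of the 4 genes were called higher in 4N than in 2N cells, and *Spc24* was at 0.79 (0.57 to 1.01).

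The MIS12 complex ties the outer layer to CENP-C and CENP-T. *Mis12* was at 61.6 and 27.3 CPM in unsorted cells, 71.3 and 31.7 in 2N cells, and 72.2 and 38.1 in 4N cells. *Nsl1* was at 18.6 and 7.84 CPM in unsorted cells, 25.6 and 9.42 in 2N cells, and 23.5 and 18.04 in 4N cells. Its 4N/2N ratio was slightly below 0 with vehicle (-0.12, -0.23 to -0.01) and close to 1 after CYC065 (0.94, 0.79 to 1.09). In the deposited columns, *Nsl1* had 486, 490 and 495 counts in vehicle 2N cells and 482, 483 and 454 in vehicle 4N cells. After CYC065 it had 175, 187 and 173 in 2N and 397, 385 and 420 in 4N cells. These are unscaled counts of 3 columns of 1 library each, so their spread shows counting error and adds nothing to the interval. The other 3 genes, *Mis12*, *Dsn1* and *Pmf1*, had 4N/2N ratios after CYC065 of 0.27, 0.33 and 0.59.

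*Knl1* encodes the scaffold on which BUB proteins gather, and *Zwint* a protein bound to it. *Knl1* was at 166 and 62.8 CPM in unsorted cells, 131 and 56.8 in 2N cells, and 184 and 144 in 4N cells, and its 4N/2N ratio went from 0.49 (0.45 to 0.53) with vehicle to 1.34 (1.28 to 1.40) after CYC065, the highest of the layer. *Zwint* was at 84.1 and 62.8 CPM in unsorted cells, 111 and 81.5 in 2N cells, and 115 and 85.8 in 4N cells. Its CYC065/vehicle ratio was nearly the same in unsorted (-0.42, -0.48 to -0.36), 2N (-0.45, -0.51 to -0.40) and 4N (-0.42, -0.47 to -0.37) cells. *Zwint* was thus among the 7 members below -1 in none of the populations, and *Knl1*, whose product it binds, was not. *Zwint*, *Ndc80* and *Ska2* were the 3 members with fractional counts, which arise when reads are shared out between genes.

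The SKA complex steadies the grip of NDC80 on microtubules. *Ska1* was at 40.5 and 6.18 CPM in unsorted cells, 34.6 and 7.39 in 2N cells, and 46.03 and 17.5 in 4N cells, a 6.55-fold lower level with CYC065 in unsorted cells and the widest difference of the 39 members in unsorted (-2.71, -2.88 to -2.55) and 2N cells (-2.23, -2.38 to -2.07). *Ska2*, the most counted of the 3, was at 48.4 and 22.2 CPM in unsorted cells, 49.7 and 22.7 in 2N cells, and 70.3 and 37.98 in 4N cells. *Ska3* was at 27.4 and 11.7 CPM in unsorted cells, 24.3 and 14.7 in 2N cells, and 34.3 and 29.6 in 4N cells, and its ratio in 4N cells (-0.22, -0.31 to -0.13) was the nearest to 0 of the layer. The 3 partner genes therefore differed by more than their counting intervals in 4N cells, from -1.40 in *Ska1* to -0.22 in *Ska3*.

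*Knl1* and *Zwint* had the highest and the lowest 4N/2N ratio of the outer kinetochore after CYC065. The *Knl1* promoter (chr2:119046869-119047168, plus strand) held a CHR at 31 bases after the start site and no CCAAT box. The *Zwint* promoter (chr10:72654596-72654895, plus strand) held 2 CCAAT boxes and no CHR.
Knl1: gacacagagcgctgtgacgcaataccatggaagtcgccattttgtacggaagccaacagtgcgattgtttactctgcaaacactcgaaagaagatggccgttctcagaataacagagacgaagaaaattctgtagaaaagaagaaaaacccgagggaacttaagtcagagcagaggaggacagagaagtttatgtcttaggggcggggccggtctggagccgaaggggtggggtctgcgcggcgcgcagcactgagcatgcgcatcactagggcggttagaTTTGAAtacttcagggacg
Zwint: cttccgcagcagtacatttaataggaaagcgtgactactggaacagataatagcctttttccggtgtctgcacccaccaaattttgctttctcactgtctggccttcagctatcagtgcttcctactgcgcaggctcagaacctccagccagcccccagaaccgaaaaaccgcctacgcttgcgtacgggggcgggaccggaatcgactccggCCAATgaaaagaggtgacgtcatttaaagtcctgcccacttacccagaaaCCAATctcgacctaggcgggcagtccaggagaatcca

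Among the checkpoint and corona genes, 8 of 10 were called lower with CYC065 in unsorted cells, 8 in 2N and 3 in 4N cells, with medians of -1.60, -1.37 and -0.83. *Bub1b* encodes BUBR1, a part of the complex that holds back the anaphase-promoting complex, and its level was 170.4 and 72.2 CPM in unsorted cells, 89.6 and 60.1 in 2N cells, and 149 and 140.1 in 4N cells. In 4N cells it was near its vehicle level (-0.09, -0.13 to -0.04), and in unsorted cells it was called lower (-1.24, -1.29 to -1.19). The CYC065-treated 4N level of *Bub1b* was 0.65 higher on the log2 scale than that of vehicle-treated 2N cells, the widest such margin of the 39 members. The kinase genes *Bub1* (-1.46 and -0.98) and *Ttk* (-1.33 and -0.62) were called lower in 2N and not in 4N cells. *Bub3*, whose product carries BUB1 and BUBR1 to KNL1, was at -1.07 (-1.13 to -1.02) in 2N and -0.87 (-0.92 to -0.83) in 4N cells.

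MAD1 and MAD2 make the soluble checkpoint signal at unattached kinetochores. *Mad2l1* was at 71.6 and 19.6 CPM in unsorted cells, 70.7 and 26.7 in 2N cells, and 89.99 and 43.03 in 4N cells, and it was called lower in all 3 populations, with -1.06 (-1.13 to -1.0) in 4N cells. *Mad1l1* was at 44.5 and 18.2 CPM in unsorted cells, 40.9 and 18.5 in 2N cells, and 44.4 and 26.1 in 4N cells, and its 4N/2N ratio with vehicle (0.12, 0.04 to 0.20) was the lowest of the layer. Both genes of the pair had a higher 4N/2N ratio after CYC065, 0.50 (0.39 to 0.61) in *Mad1l1* and 0.69 (0.60 to 0.78) in *Mad2l1*.

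ZW10 and ZWILCH belong to the complex that brings dynein to kinetochores. *Zw10* was at 23.4 and 15.3 CPM in unsorted cells, 36.3 and 19.5 in 2N cells, and 41.9 and 24.3 in 4N cells. *Zwilch* was at 31.4 and 7.60 CPM in unsorted cells, 33.95 and 11 in 2N cells, and 46.8 and 17.5 in 4N cells, with the lowest CYC065/vehicle ratio of the layer in unsorted (-2.05, -2.21 to -1.89) and 4N (-1.42, -1.52 to -1.33) cells. *Zw10* had the highest of the layer in unsorted cells (-0.61, -0.73 to -0.48), so the partners stood at opposite ends.

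*Cenpe* encodes a kinesin that carries chromosomes to the spindle equator, and its level was 228 and 59.8 CPM in unsorted cells, 169 and 50.6 in 2N cells, and 276 and 118 in 4N cells. *Cenpf* encodes a large coiled-coil protein of the corona, and its level was 316 and 106 CPM in unsorted cells, 229 and 75.4 in 2N cells, and 365 and 223 in 4N cells, the most counts of any member. The 4N/2N ratio of *Cenpf* after CYC065, 1.57 (1.52 to 1.61), was the highest of the 39 members, and with vehicle it was 0.67 (0.64 to 0.70). In *Cenpe* these ratios were 1.23 (1.17 to 1.29) and 0.71 (0.67 to 0.74).

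*Cenpf* and *Zw10* had the highest and the lowest 4N/2N ratio of this layer after CYC065. The *Cenpf* promoter (chr1:189688037-189688336, minus strand) held a CHR at 2 bases after the start site and 2 CCAAT boxes before it. The *Zw10* promoter (chr9:49055331-49055630, plus strand) held a CHR at 148 bases before the start site and no CCAAT box.
Cenpf: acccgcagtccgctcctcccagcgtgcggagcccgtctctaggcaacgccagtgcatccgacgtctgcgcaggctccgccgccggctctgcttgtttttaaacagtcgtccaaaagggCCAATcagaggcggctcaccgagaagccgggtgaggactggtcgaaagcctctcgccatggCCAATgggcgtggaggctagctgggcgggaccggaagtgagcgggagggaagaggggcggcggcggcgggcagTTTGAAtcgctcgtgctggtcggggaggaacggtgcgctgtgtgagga
Zw10: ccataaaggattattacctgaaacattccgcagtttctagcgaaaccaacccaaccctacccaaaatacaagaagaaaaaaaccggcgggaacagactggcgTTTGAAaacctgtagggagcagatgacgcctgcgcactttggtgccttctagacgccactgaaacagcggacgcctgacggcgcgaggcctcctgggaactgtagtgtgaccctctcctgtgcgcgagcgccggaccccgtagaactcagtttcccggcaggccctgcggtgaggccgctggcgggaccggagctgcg

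Set side by side, the inner, outer and checkpoint layers had median CYC065/vehicle log2 ratios of -1.39, -1.40 and -1.60 in unsorted cells and of -0.76, -0.73 and -0.83 in 4N cells. The 4N versus 2N comparison gave them other values. The inner kinetochore had a median 4N/2N log2 ratio of 0.18 with vehicle and 0.66 after CYC065. The outer kinetochore had 0.41 and 0.94, and the checkpoint and corona genes had 0.43 and 0.83. Called higher in 4N cells after CYC065 were 0 of 13 inner, 6 of 13 outer and 3 of 10 checkpoint and corona genes. The ranges overlapped, from 0.08 to 0.92 in the inner and from 0.07 to 1.34 in the outer kinetochore, and with 1 library per condition no test of the difference between layers was made. By complex, the median after CYC065 was highest in the corona pair (1.40), NDC80 (1.12), the CENP-A and HJURP pair (1.09) and SKA (1.01), and lowest in the MIS12 complex (0.46) apart from *Cenpb*.

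A second list held 30 other kinetochore and checkpoint genes. In unsorted cells 19 of the 29 compared were called lower, in 2N cells 15 of 30 and in 4N cells 8 of 30, with medians of -1.31, -1.0 and -0.55. Of this list, 1 gene in unsorted, 2 in 2N and 5 in 4N cells were higher with CYC065 beyond counting error. The members had 0, 0 and 2 such genes, and over all genes it was 5722 of 14082, 6026 of 14090 and 6166 of 14183. In the list, 0 were called higher, beside 1786, 2294 and 2210 of all genes. The highest ratios were those of *Clip1* in unsorted cells (0.37), the gene for a protein that tracks microtubule ends, and of *Mad2l1bp* in 2N (0.67) and 4N (0.47) cells, whose product takes part in silencing the checkpoint. After CYC065, 10 of 30 were called higher in 4N than in 2N cells, with a median of 0.72. The lowest ratios in 4N cells were those of *Cenpx* (-1.95), an inner kinetochore gene, and *Knstrn* (-1.71), the gene for kinastrin. The highest 4N/2N ratios after CYC065 were those of *Kif2c* (1.40), a microtubule depolymerase, *Plk1* (1.31), a mitotic kinase, and *Aurkb* (1.25), the kinase of the chromosomal passenger complex, and the lowest was that of *Mad2l1bp* (-0.07, -0.19 to 0.05).

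Most cell cycle markers, given as measured, were lower with CYC065 than with vehicle, as most members were. In the 4N/2N log2 ratio with vehicle, 14 of 16 S phase markers were below 0, where 35 of 39 members were above 0. Of 16 S phase markers, 15, 13 and 12 were called lower with CYC065 in unsorted, 2N and 4N cells, and of 15 G2 and M markers 14, 11 and 4. The cyclin gene *Ccnb2* ran against its G2 and M list, at 0.42 (0.29 to 0.56) in 2N and 0.34 (0.24 to 0.44) in 4N cells. The median 4N/2N log2 ratio was -0.18 with vehicle and 0.18 after CYC065 for the S phase markers, and 0.71 and 1.21 for the G2 and M markers, of which 13 were called higher after CYC065. The members' medians, 0.31 and 0.74, lay between those of the lists. How far the share of cells in each phase accounts for the members' values was not tested.

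**Figure D4:**
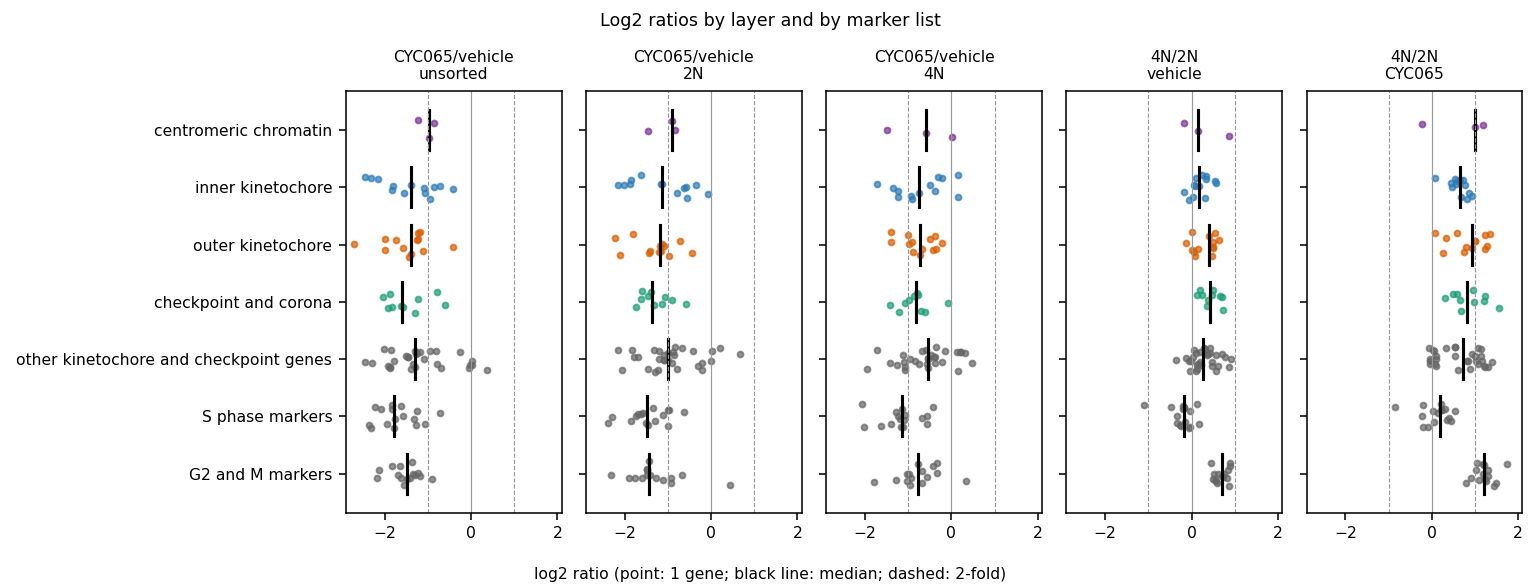
Log2 ratios of the members by layer and of 3 other gene lists (rows) in 5 comparisons (panels), with 1 point per gene, a black line at the median and dashed lines at 2-fold. In the rightmost panel the inner kinetochore points all lie below 1, and the G2 and M markers have the highest median, 1.21.

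Promoter windows were held for 35 of the 39 members. A CHR was found in 17 of the 35 (48.6%) and in 21.7% of all genes with a window, and a CCAAT box in 65.7% against 41.1%. Both were found in 13 members (37.1%) against 8.61% of all genes. The E2F motif, searched as TTTGGCGC, TTTGCCGC, TTTCGCGC and TTTCCCGC on both strands, was found in 4 members (11.4%) against 2.6%. All genes with a window include genes with too few reads to be tested, whereas all members were tested. Of genes tested in unsorted cells with a window, 1583 held a CHR and 8158 did not. For the other motifs such counts were not made. By layer, a CHR was found in 4 of 13 inner, 5 of 10 outer and 6 of 9 checkpoint and corona genes and in 2 of 3 genes of centromeric chromatin. The 17 members with a CHR had a median 4N/2N log2 ratio of 0.47 with vehicle and 0.98 after CYC065, and the 18 without had 0.15 and 0.57. Over all genes tested, the medians were 0.05 with and 0.01 without a CHR with vehicle, and 0.04 and 0.00 after CYC065. For CYC065 over vehicle, the 17 members with a CHR had medians of -1.24, -1.08 and -0.62 in unsorted, 2N and 4N cells. The 18 with a window and no CHR had -1.34, -1.15 and -0.83. The 4 members with no window had -2.02, -1.87 and -1.40. Since these letters are short, a match is a description of the window and not a bound site.

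The members lay on 17 chromosomes (mm10). *Bub1b* (chr2:118598211-118641591) and *Knl1* (chr2:119047119-119105501) were both on chromosome 2 and each was called higher in 4N than in 2N cells after CYC065. *Spc25*, on the same chromosome, was also called higher. *Bub1* and *Dsn1* there were not called, and *Cenpb* there was at -0.23. *Cenpf*, with the highest ratio, was at chr1:189640606-189688086, and *Nsl1*, with the widest difference between the ratios, at chr1:191063012-191086474. *Hjurp* and *Nuf2*, both called higher, and *Cenpl*, not called, were also on chromosome 1. Whether position plays a part was not tested. Levels between genes were compared per length. In vehicle-treated 4N cells, the 8 members with the lowest CPM per kilobase were the same whether the length was that of the coding transcripts or that of all exons, and 7 of the 8 were inner kinetochore genes (*Cenph*, *Cenpk*, *Cenpl*, *Cenpo*, *Cenpp*, *Cenpu* and *Cenpw*). The other was *Nsl1*. In CPM, the 4N level after CYC065 lay above the vehicle 2N level beyond counting error in 9 members, beside 42.6% of all genes: *Cenpa*, *Hjurp*, *Cenpc1*, *Cenpp*, *Cenpq*, *Spc25*, *Knl1*, *Ska3* and *Bub1b*. It lay below in 28, for which the share over all genes was not computed. In the other 2 the interval held 0, as in *Cenpl* (0.07, -0.05 to 0.18).

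The unsorted libraries did not always lie between the sorted ones. With vehicle, the unsorted level of 13 members lay below the 2N and the 4N level beyond counting error, beside 31.9% of all genes, and that of *Cenpc1* and *Bub1b* lay above both, beside 29.4%. After CYC065, 20 members lay below both, beside 26.5% of all genes, and *Cenpb* lay above both, beside 25.3%. The 20 became 31 with library size scaling only, for which the share over all genes was not computed. That scaling also lowered the median of all genes, to -0.12 for CYC065 over vehicle in unsorted cells. Some markers also lay outside the sorted levels, with TMM scaling. Of 16 S phase markers, 15 lay below both sorted levels with vehicle and 15 after CYC065, and of 15 G2 and M markers 2 and 4. Of 6 fibroblast markers, *Col1a1*, *Col1a2* and *Col3a1* lay above both in each treatment. *Dcn* and *Pdgfra* did so after CYC065, and *Lum* lay below both with vehicle. The part of these markers, or of passage through the sorter, in the members' values was not tested. This comparison was added after the values had been seen.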

How the data were processed

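RNA-Seq counts were analyzed from ED1SQ4 cells in 6 conditions, each deposited as 3 columns. Per the labels and the study's methods, the authors depleted rRNA, prepared stranded libraries and sequenced paired ends. The submitters' processing notes name bcl2fastq 2.17, Cutadapt 1.18, STAR 2.7.0f (mm10) and RSEM 1.3.1, while the study's methods give later versions of bcl2fastq and RSEM, and annotation was GENCODE M21. What the authors deposited are expected counts from RSEM, with no normalization or filter, and 9.66% of genes had a fractional value.

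Columns were summed to 1 library per condition of 54750168 to 62795450 counts, scaled together by TMM (edgeR 4.0.16, R 4.3.3) and compared as log2 ratios with exact Clopper-Pearson 95% counting intervals, a prior count of 0.125 and no p-value. The intervals had a half-width of 0.0301 to 0.3368 on the log2 scale. For the difference between 4N/2N ratios the interval came from the delta method. A gene was tested if a compared library held at least 30 counts of it, and a call was a log2 ratio beyond 1 in either direction. The steps were tested on simulated data. edgeR's quasi-likelihood test and DESeq2 1.42.0 on the columns, with expected counts rounded for DESeq2, were alternatives. Further alternatives were other scalings, filters and prior counts, an interval wholly beyond 1, whole-count genes only, and leaving out each column number. Promoter searches and figures were made in Python 3.11.15 (pandas 2.3.3, Matplotlib 3.10.9).

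The members and lists were chosen with earlier results of these data known. Levels in all 6 libraries are given for members with the highest or lowest ratio of their layer in a comparison or the most counts of their complex. Of other lists, some genes with the highest or lowest ratios of a comparison are named. Promoter sequences are from RefSeq (GRCm38.p6), searched on both strands. A CHR and a CCAAT box shared letters in *Cenpw*, and no other matches of different motifs overlapped.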

Additional observations from a re-analysis of the deposited data

Results flagged for a closer look

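*Cenpq* went opposite ways with CYC065 in the sorted populations, at -0.35 on the log2 scale in 2N and 0.16 in 4N cells. *Nsl1* went opposite ways between 2N and 4N cells, at -0.12 on the log2 scale with vehicle and 0.94 after CYC065. With 1 library per condition, neither difference was tested. Whether the intervals of *Cenpq* in 4N cells and of *Nsl1* with vehicle hold 0 depends on the scaling. With DESeq2 size factors, the median of all genes moved from 0.03 to -0.05 for CYC065 over vehicle in 4N cells. For 4N over 2N cells with vehicle it moved to 0.04.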

How the results depend on the processing

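No condition has replicate cultures, so the values compare libraries. No median of the members changed sign under any alternative for which it was computed. For counts of called members no reversal was defined, and their ranges are given below. With library size scaling only, the median of all genes shifted to -0.12 in unsorted and 0.11 in 4N cells. The members' median with CYC065 in unsorted cells was then -1.50. Members whose unsorted level lay below both sorted levels after CYC065 numbered 31, and the share of all genes was not computed there. With DESeq2 size factors the members' median in 4N cells was -0.85. The 1 difference between 4N/2N ratios above 1 went to 0 where the whole interval had to lie beyond 1. Leaving out each column number gave 0 to 1 for that count, with 0 without column 3 of each condition. Called members numbered 28 to 32 in unsorted, 24 to 27 in 2N and 9 to 16 in 4N cells, 0 for 4N versus 2N with vehicle, and 8 to 12 after CYC065, where the 8 came from DESeq2's test and from the interval rule. Of 234 single-gene values, 232 to 234 kept their sign under each setting, and the exceptions lay within 0.07 of 0. Of the 234, 46 left their counting interval with library size scaling only (largest move of any value 0.11) and 26 did with DESeq2 size factors (0.09), so the intervals do not cover the choice of scaling. Without a column number 0 to 2 did (largest move 0.28). The cause of these moves was not tested.

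As a check of pairing, same-numbered columns of different conditions had deviations correlated at -0.57 to 0.40 (median -0.01). The correlations did not share 1 sign, and this does not exclude pairing. edgeR's quasi-likelihood test with the replicate number as a block called 30, 26 and 10 members lower with CYC065 in unsorted, 2N and 4N cells, 0 and 11 higher in 4N than in 2N cells with vehicle and after CYC065, and 1 for the difference, the same counts as without the block.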
